A study of Homo sapiens with 9 samples.

Results

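The genes described here encode the enzymes and regulators that make cholesterol and fatty acids. They were the 33 genes of a named list whose symbol appears in the deposited expression table, and all 33 were found among its 13745 genes. Expression was measured by polyA RNA-seq in BJ cells, human skin fibroblasts immortalised with telomerase (hTERT), in which an oncogenic RAS, RASG12V, can be activated so that the cells senesce. The labels give 14 days of 4-OHT (4-hydroxytamoxifen) for all 9 libraries, the control included, whereas the series' design text calls the control untreated. The control (1 library, non-targeting hairpin 500) has a label that does not mention RASG12V. The senescent group had RASG12V with non-targeting hairpin 500 in replicate 1 and 507 in replicate 2. Its titles carry Ctr, as the control's does, whereas its descriptions carry Sen, and the descriptions were followed here. The third group carried RASG12V and a hairpin against the long non-coding RNA lncRNA-OIS1, with a different hairpin in each of its 4 libraries (replicates 1 to 4). The p53 and BRD7 knockdowns under RASG12V had 1 library each. Each value is a read count that the authors normalised so that all libraries hold the same set of values, with a median of 340.1 and a floor of 20. Depth is therefore unknown, total RNA per cell cannot be compared, and a level is read only within a gene. No member was at the floor in any library, and all 33 were tested. The labels do not say whether libraries of a group came from separate cultures. The p-values therefore cover only library-to-library spread, which may be technical in part. That spread also holds differences between hairpins, since the libraries within each replicated group carried different ones. It is estimated mainly from the 4 lncRNA-OIS1 libraries and serves every comparison.

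Cholesterol is built from acetyl-CoA through mevalonate, farnesyl diphosphate, squalene and lanosterol, and fatty acids from acetyl-CoA through malonyl-CoA. Transcription of both pathways is driven by the SREBP factors, encoded by SREBF1 and SREBF2, which are carried by SCAP from the endoplasmic reticulum to the Golgi to be cut and released. INSIG1 holds SCAP back when sterols are plentiful and is itself a target of SREBP, and NF-Y, which binds the CCAAT box, acts beside SREBP at many of these promoters. Dividing fibroblasts need these lipids for new membrane.

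Promoter sequences are shown for 8 members. The 3 called between senescent and control libraries are INSIG1, SREBF1 and FADS1. SREBF2 is the only member whose supplied window matched the sterol response element pattern searched. SCD, STARD4, TMEM97 and HSD17B7 are described at length below. The sequences are from RefSeq on GRCh38.p14, a later build than the one named for the deposited table. They stop before the first exon of the same gene in GENCODE release 29. Windows of 250 bases before to 50 after a start site were supplied for 29 of the 33 members. Capitals mark the letters of a sterol response element (TCACNCCAC) or an NF-Y box (CCAAT, read as ATTGG on the other strand).
INSIG1, chr7:155297628-155297775, plus strand: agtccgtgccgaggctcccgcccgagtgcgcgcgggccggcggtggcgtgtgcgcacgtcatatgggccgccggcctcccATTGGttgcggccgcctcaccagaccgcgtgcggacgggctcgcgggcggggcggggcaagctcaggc
SREBF1, chr17:17837003-17837236, minus strand: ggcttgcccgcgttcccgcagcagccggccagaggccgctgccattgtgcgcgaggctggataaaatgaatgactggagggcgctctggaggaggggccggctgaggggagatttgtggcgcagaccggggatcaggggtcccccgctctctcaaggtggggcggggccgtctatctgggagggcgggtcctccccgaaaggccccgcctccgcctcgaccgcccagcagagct
FADS1, chr11:61817198-61817253, minus strand: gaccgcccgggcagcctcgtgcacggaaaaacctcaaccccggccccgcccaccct
SREBF2, chr22:41832855-41833078, plus strand: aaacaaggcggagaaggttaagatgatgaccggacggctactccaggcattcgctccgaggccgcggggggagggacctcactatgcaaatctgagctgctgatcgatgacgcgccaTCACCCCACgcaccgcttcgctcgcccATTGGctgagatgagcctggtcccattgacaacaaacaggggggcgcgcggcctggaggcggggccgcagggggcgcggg
SCD, chr10:100346983-100347123, plus strand: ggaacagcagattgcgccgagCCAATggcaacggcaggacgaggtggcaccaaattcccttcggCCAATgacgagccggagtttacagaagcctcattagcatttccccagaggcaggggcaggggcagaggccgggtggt
STARD4, chr5:111512591-111512785, minus strand: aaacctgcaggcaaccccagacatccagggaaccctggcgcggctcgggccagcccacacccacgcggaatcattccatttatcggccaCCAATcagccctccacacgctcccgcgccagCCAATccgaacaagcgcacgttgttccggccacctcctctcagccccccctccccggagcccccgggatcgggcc
TMEM97, chr17:28318950-28319094, plus strand: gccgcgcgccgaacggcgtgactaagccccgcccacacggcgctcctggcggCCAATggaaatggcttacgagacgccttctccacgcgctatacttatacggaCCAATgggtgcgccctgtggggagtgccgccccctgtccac
HSD17B7, chr1:162790452-162790701, plus strand: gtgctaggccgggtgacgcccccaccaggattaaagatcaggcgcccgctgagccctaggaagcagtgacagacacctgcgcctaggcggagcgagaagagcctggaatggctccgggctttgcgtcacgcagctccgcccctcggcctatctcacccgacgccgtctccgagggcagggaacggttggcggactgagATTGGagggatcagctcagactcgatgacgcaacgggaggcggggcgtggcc

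Neither SREBF1 nor FADS1 holds either motif, in these stretches or in the full windows. The CCAAT box occurs in the other 6 stretches, and the sterol response element only in SREBF2, where it starts 133 bases before the RefSeq start, with an inverted CCAAT box starting at 106 bases before it. Both motifs and the E-box CACGTG were searched on both strands of the full windows, and 0 matches of different motifs overlapped in the members' windows. CCAAT was found in 26 of the 39 windows of members (22 of 29 genes), against 34.6% of all 35116 windows supplied. TCACNCCAC was found in 1 member window against 1.13% of all windows, and CACGTG in 5 member windows (LSS, SC5DL, SCAP and INSIG1) against 7.26%. A match is a description of the letters only, and sites of other spelling or outside the windows were not searched.

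The direction of the difference between senescent and control libraries varied between roles, and the list as a whole had a median near that of all genes tested. All 4 regulators, both sterol transport and binding genes and 5 of 6 fatty acid genes stood lower in senescent replicates 1 and 2 than in the control. All 6 mevalonate genes were higher in both, and 6 of 11 genes from squalene to cholesterol were higher and 4 lower. By limma with Benjamini-Hochberg adjustment over 12481 genes, 3 members fell (SREBF1, INSIG1 and FADS1) and 0 rose, whereas 7.1% of all genes tested fell and 7.95% rose. The median log2 change of the members was −0.002 (range −2.74 to 0.98), beside 0.03 for all genes tested. Both senescent libraries lay above the control for 15 members and below it for 16, which leaves ACLY and HSD17B7. Over all genes 48.1% lay above and 42.8% below. Without senescent replicate 1 or replicate 2 no member was called. LncRNA-OIS1 replicate 4 held the highest value for 17.4% of all genes and enters every estimate of spread. Without it, 4 members were called higher and 7 lower. With only the 3 libraries compared, the spread came from the 2 senescent libraries alone, and more members were called in each direction. The share of all genes called is not given here for either setting, so these calls describe only the dependence on the setting.

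**Figure D1:**
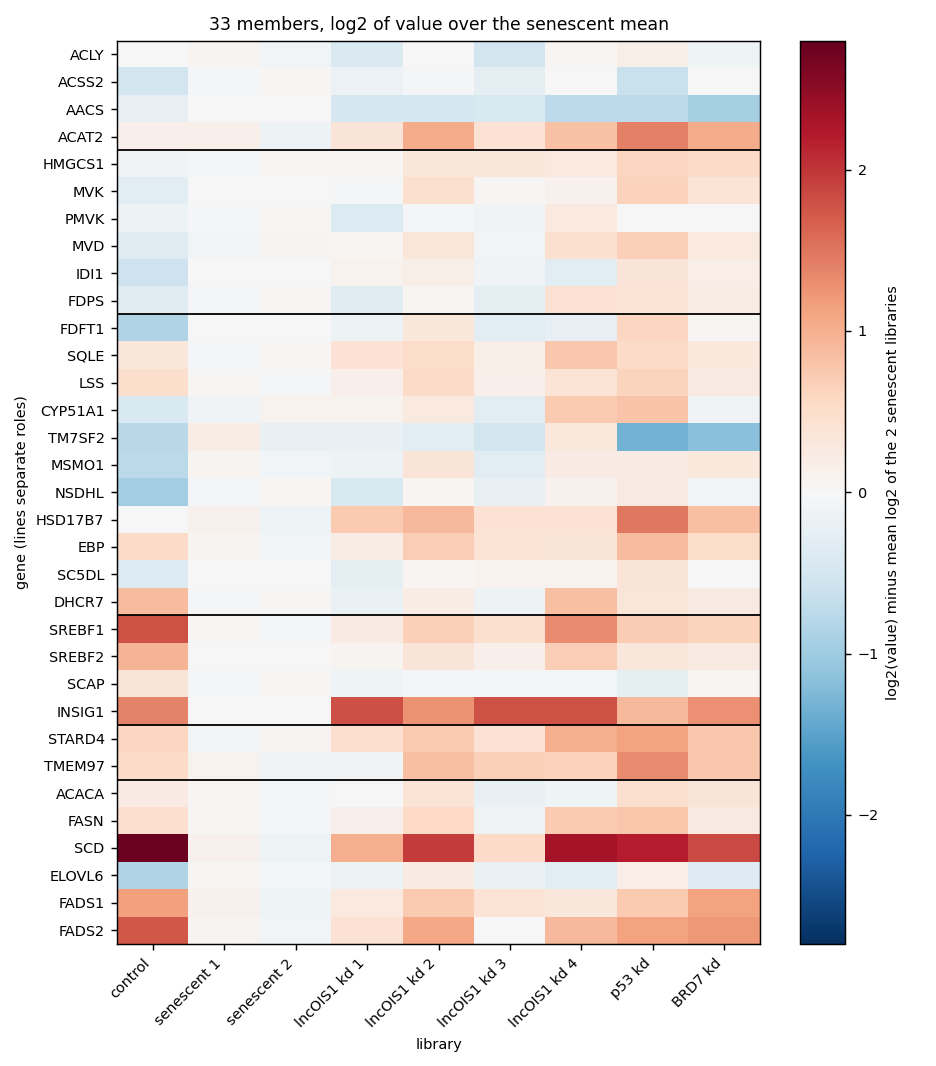
Each row is 1 of the 33 members and each column 1 of the 9 libraries, and colour gives log2 of the value minus the mean log2 of the 2 senescent libraries (red higher, blue lower). Lines separate, from the top, acetyl-CoA supply, mevalonate, squalene to cholesterol, regulators, sterol transport and fatty acid genes, and SCD, INSIG1, SREBF1 and FADS2 are red in nearly every library that is not senescent.

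With p53 knocked down under RASG12V, most of the list had higher values than in the senescent libraries, yet no member passed the threshold. The p53 library lay above both senescent libraries for 28 of 33 members, against 43.4% of all genes, and below both for 4 (ACSS2, AACS, TM7SF2 and SCAP), against 45% of all genes. The median log2 difference was 0.60 over the members and 0 over all genes tested. After adjustment by limma, 0 of 33 members were called, while 2.27% of all genes were called higher and 1.57% lower. At an unadjusted p under 0.05, 13 members were higher and 4 lower, against 13.3% and 13.1% of all genes. The p53 library held the highest of the 9 values for 17 members, where 17.2% of all genes had their highest value. Without lncRNA-OIS1 replicate 4, 2 members were called higher and 3 lower. With only the 3 libraries compared in the fit, the spread came from the 2 senescent libraries alone, and more members were called in each direction. For neither setting is the share of all genes called given here.

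The lncRNA-OIS1 and BRD7 knockdowns gave smaller median differences from the senescent libraries, 0.20 and 0.26 on the log2 scale, beside −0.02 for all genes tested in each. All 4 lncRNA-OIS1 libraries lay above both senescent libraries for 11 members (17.1% of all genes did) and below both for AACS and SCAP (21.5% of all genes). The BRD7 library lay above both for 24 members (40.1% of all genes) and below both for 5 (45.4%). No member was called in either comparison by limma, where 0% of all genes were called with lncRNA-OIS1 hairpins and 0.00801% with BRD7 knockdown. At an unadjusted p under 0.05, 8 members were higher and 1 lower with lncRNA-OIS1 hairpins (10.5% and 12% of all genes), and 7 higher and 2 lower with BRD7 knockdown (6.81% and 7.09%). The 3 knockdown comparisons share the senescent libraries, so their likeness is not a separate result.

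Set against the control, all 4 lncRNA-OIS1 libraries were lower for SCD, FADS1, FADS2, SREBF1, SREBF2, SCAP, AACS and DHCR7. They were higher for several other sterol genes. By limma 1 member was called lower, SCAP, and 0 higher, where 5.83% of all genes were called lower and 5.38% higher. All 4 libraries lay above the control for 15 members (32.1% of all genes) and below it for 8 (28.7%), and the median log2 difference was 0.14 beside 0.05 for all genes. At an unadjusted p under 0.05, 7 were higher and 5 lower (15.3% and 13.9% of all genes). Among the largest changes, the lower side held SCD (log2 −1.28, SE 0.68), FADS2 (−1.14, SE 0.41), SREBF1 (−1.12, SE 0.40), FADS1 (−0.72, SE 0.20) and DHCR7 (−0.69, SE 0.40). Their limma adjusted p = 0.278, 0.142, 0.136, 0.0817 and 0.312. The higher side held NSDHL (log2 0.87, SE 0.23), MSMO1 (0.78, SE 0.28), FDFT1 (0.76, SE 0.24) and ELOVL6 (0.74, SE 0.20), with adjusted p = 0.0664, 0.135, 0.106 and 0.0777. Without lncRNA-OIS1 replicate 4, 1 member was called higher and 4 lower, without replicate 2 the calls were 2 higher and 1 lower, and without replicate 1 the single call was NSDHL, higher. Without replicate 3 or either senescent library no member was called. The share of all genes called is not given here for these settings, so these calls describe only the dependence on the setting. Senescent and lncRNA-OIS1 libraries are here compared with the same control library, and the difference between them is the comparison above.

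**Figure D2:**
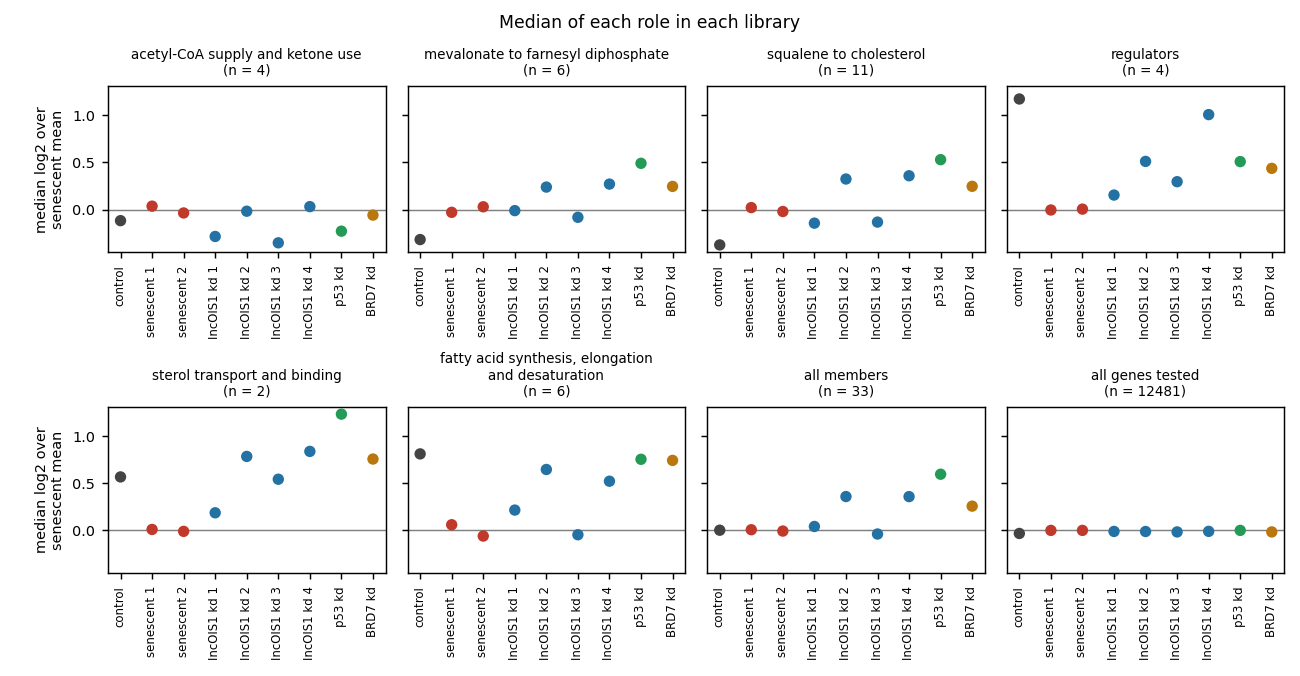
Each panel is a role, all members or all genes tested, with the number of genes, and each point is the median over those genes in 1 library of log2 value minus the senescent mean (y axis), with libraries along the x axis and groups by colour. Over all members the p53 library stood at 0.60, lncRNA-OIS1 replicates 2 and 4 at 0.36 each, and replicates 1 and 3 at 0.04 and −0.04, while all genes tested stayed between −0.03 and 0.

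The 4 lncRNA-OIS1 libraries differed among themselves across the list. Replicates 2 and 4 had 28 and 27 of 33 members above the senescent mean of log2 values, and replicates 1 and 3 had 18 and 16. For the 11 genes from squalene to cholesterol, 10 were above it in replicates 2 and 4 and 5 in replicates 1 and 3. The median difference of the list from the senescent libraries was 0.11 without replicate 4 and 0.29 without replicate 3.

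Genes of dividing cells differed across the libraries too. The summed value of 8 such genes (MKI67, TOP2A, CCNA2, CCNB1, CDK1, BIRC5, FOXM1 and AURKB) was 16194.1 in the control and 7685.3 and 5877.7 in senescent replicates 1 and 2. It was 11843.2, 22681.2, 14962.1 and 16698.8 in lncRNA-OIS1 replicates 1 to 4, 31582.9 with p53 knockdown and 22483 with BRD7 knockdown. All 8 were higher in every knockdown library than in both senescent ones, where 17.1%, 43.4% and 40.1% of all genes were so with lncRNA-OIS1, p53 and BRD7 knockdown. With p53 knockdown 5 of 8 (CCNA2, CDK1, BIRC5, FOXM1 and AURKB) were called higher, against 2.27% of all genes. The p53 library, highest for 17 members, also had the highest sum of dividing-cell genes, and the part of division in the members' levels was not tested. The cells carried fibroblast genes throughout: 10 of 10 markers were in the table, with sums from 169294.6 to 481700.7, the highest in the control. COL1A1, COL1A2 and FN1 were largest in that sum, whereas COL6A1 (4598), COL6A2 (8201.7) and VIM (39745.4) had their lowest values in the control. Of 8 adipocyte markers only PPARG was in the table, at 36.2 to 372.6, and the other 7 were not analysed here. Of the other types, 4 of 6 epithelial, 1 of 5 endothelial and 2 of 6 leukocyte markers were in the table, with sums of 822.5 to 3706.7, 22.2 to 266.9 and 45.1 to 196.5. The control differed in some of these genes. Its epithelial sum was 3706.7 against 822.5 to 2125.3 in the other libraries, from KRT18 (3073.7) and KRT8 (593), while KRT19 and CLDN4 were at the floor there. PTPRC, a leukocyte gene, had 156.6 in the control while the other 8 libraries held the floor value of 20. CD14, the other leukocyte gene in the table, went the other way, with 39.9 in the control and 143.9 and 115.2 in senescent replicates 1 and 2. The part of these genes in the differences between senescent and control libraries was not tested. In bulk RNA, fewer cells of a type and less RNA per cell cannot be told apart. BRD7 itself stood at 94.6 in its knockdown library and between 536.6 and 695.3 in the other 8.

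Like SREBF1 and SREBF2 among the regulators, INSIG1, the retention protein of SCAP, was lower in both senescent libraries than in all others. It stood at 1877.2 in the control, 712.3 and 727.2 in senescent replicates 1 and 2, 2531.7, 1715.9, 2492.2 and 2461.8 in lncRNA-OIS1 replicates 1 to 4, 1358.2 with p53 knockdown and 1749.7 with BRD7 knockdown. Both senescent values were below every other value, and 3 of the 4 lncRNA-OIS1 libraries exceeded the control. The mean was 719.8 ± 10.5 (SD, n = 2) with senescence and 2300.4 ± 390.7 (SD, n = 4) with lncRNA-OIS1 hairpins. INSIG1 fell in the senescent libraries relative to the control by 1.38 on the log2 scale (SE 0.26, limma adjusted p = 0.0266). Against the senescent libraries the log2 difference was 1.66 with lncRNA-OIS1 hairpins (SE 0.18, limma adjusted p = 0.0788), the smallest unadjusted p of any member in that comparison (0.000135), and leaving out replicate 2 brought it to a call (log2 1.79). It was 0.92 with p53 knockdown (SE 0.26, adjusted p = 0.0962) and 1.28 with BRD7 knockdown (SE 0.26, adjusted p = 0.196), neither a call.

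SREBF1, which encodes the SREBP that favours fatty acid genes, was highest in the control at 1718.9. It had 508.6 and 491.6 in senescent replicates 1 and 2, 583.8, 790.7, 678.3 and 1253.9 in lncRNA-OIS1 replicates 1 to 4, 817.7 with p53 knockdown and 769.6 with BRD7 knockdown. All knockdown libraries lay between the senescent libraries and the control, replicate 4 nearest to the control. SREBF1 fell with senescence by 1.78 on the log2 scale (SE 0.44, limma adjusted p = 0.0496), a call at the edge of the threshold. It was lost without lncRNA-OIS1 replicate 1, 2 or 3, without either senescent library, without the filter on low values and without a variance trend. Its difference from the senescent libraries with lncRNA-OIS1 hairpins was 0.66 (SE 0.31, adjusted p = 0.275).

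SREBF2, whose product favours cholesterol genes, was likewise highest in the control and lowest with senescence. Its values were 3807.9 in the control, 1963 and 1947.7 in senescent replicates 1 and 2, 2072.7, 2509.6, 2170.7 and 3147.9 with lncRNA-OIS1 hairpins, 2419.1 with p53 knockdown and 2328.2 with BRD7 knockdown. The senescent value was 0.96 lower on the log2 scale (SE 0.26, limma adjusted p = 0.0598), which misses the threshold and passes it without lncRNA-OIS1 replicate 4. SCAP, the carrier, varied least of the 4, from 1182.4 in the control to 759.4 with p53 knockdown. It had 908.4 and 939.8 in senescent replicates 1 and 2, 853.9 to 907 in the lncRNA-OIS1 libraries and 964.3 with BRD7 knockdown. SCAP was the only member called between lncRNA-OIS1 hairpins and the control, where it was 0.41 lower on the log2 scale (SE 0.09, limma adjusted p = 0.0447). That call was lost when replicate 1, 2 or 3 or either senescent library was left out, with a stricter filter, without a variance trend and with only the libraries compared.

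**Figure D3:**
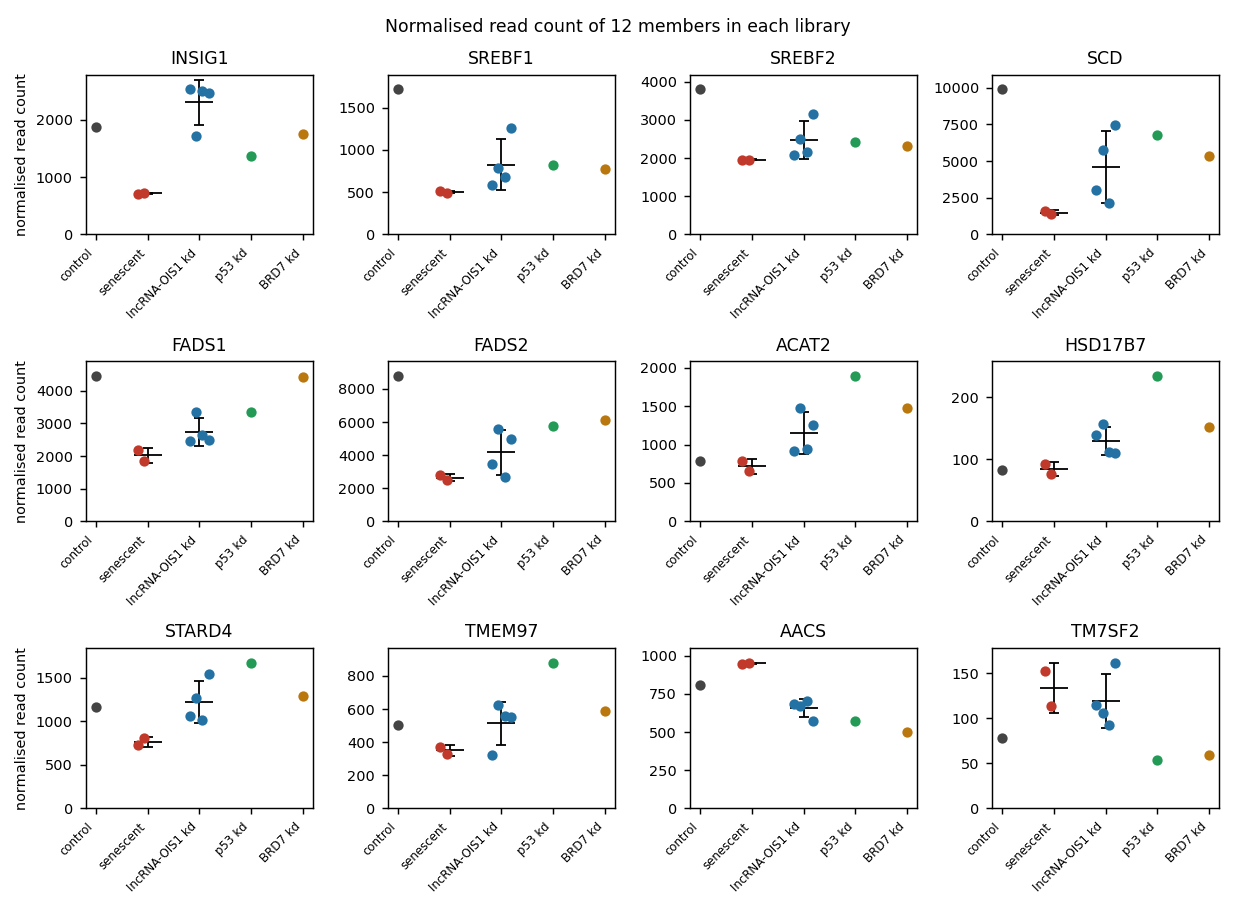
Normalised read count (y axis, linear from 0) of 12 members in each library, with points for libraries, grouped along the x axis, and a bar and whiskers for mean and SD in the groups of 2 and 4. INSIG1, SREBF1, SREBF2, SCD, FADS1 and FADS2 are lowest or nearly lowest in the senescent libraries, HSD17B7, ACAT2, STARD4 and TMEM97 are highest with p53 knockdown, and AACS and TM7SF2 are low there.

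SCD held the widest range of the list. It encodes the desaturase that introduces the first double bond into stearate and palmitate, and its highest value was 7.27 times its lowest. SCD stood at 9913.6 in the control, 1612.6 and 1363.3 in senescent replicates 1 and 2, 3019.3, 5782.3, 2154.7 and 7465.4 in lncRNA-OIS1 replicates 1 to 4, 6794.8 with p53 knockdown and 5357.3 with BRD7 knockdown. Every library outside the senescent group was above both senescent ones, but the 4 hairpins of lncRNA-OIS1 differed among themselves by more than the gap of the lowest to the senescent libraries. The senescent mean was 2.74 lower than the control on the log2 scale (SE 0.75, limma adjusted p = 0.0629). Against the senescent libraries the log2 differences were 1.47 (SE 0.53, adjusted p = 0.186) with lncRNA-OIS1 hairpins, 2.20 (SE 0.75, adjusted p = 0.139) with p53 knockdown and 1.85 (SE 0.75, adjusted p = 0.361) with BRD7 knockdown. The SE of SCD was the largest among the members in each of these comparisons. Without lncRNA-OIS1 replicate 3 or replicate 4, the difference between senescent and control passed the threshold.

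FADS1 and FADS2 encode the desaturases that make long polyunsaturated fatty acids, and they lie head to head on chromosome 11. FADS1 stood at 4455.2 in the control, 2180.2 and 1857.6 in senescent replicates 1 and 2, 2449.2, 3358.9, 2632.2 and 2502.7 with lncRNA-OIS1 hairpins, 3358.9 with p53 knockdown and 4412.6 with BRD7 knockdown. Both senescent libraries were the lowest, and BRD7 knockdown was close to the control. FADS1 fell with senescence by 1.15 on the log2 scale (SE 0.22, limma adjusted p = 0.0289), a call lost without lncRNA-OIS1 replicate 3 or either senescent library. With BRD7 knockdown FADS1 had a log2 difference of 1.13 from the senescent libraries (SE 0.22, adjusted p = 0.196).

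FADS2 stood at 8785.3 in the control, 2788.9 and 2479.9 in senescent replicates 1 and 2, 3457.7, 5606.9, 2654 and 4958.8 with lncRNA-OIS1 hairpins, 5775.4 with p53 knockdown and 6102.3 with BRD7 knockdown. Replicate 3 of lncRNA-OIS1 overlapped the senescent libraries and the other 3 did not. The senescent mean was 1.74 lower than the control (SE 0.45, limma adjusted p = 0.0566), and it passed without lncRNA-OIS1 replicate 3. The differences from the senescent libraries were 0.60, 1.13 and 1.21 on the log2 scale for lncRNA-OIS1, p53 and BRD7 knockdown (adjusted p = 0.328, 0.186 and 0.325). In the annotation FADS1 and FADS2 overlap on opposite strands and FEN1, a replication nuclease, overlaps FADS2 on the same strand. FEN1 had 884.9 in the control, 674.8 and 554.4 in senescent replicates 1 and 2 and 1737.1 with p53 knockdown, and whether it shared reads with FADS2 was not tested.

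FASN, the fatty acid synthase, had 5536.6 in the control, 4043 and 3920.9 in senescent replicates 1 and 2, 4409.7, 5840.3, 3701.6 and 6596.3 with lncRNA-OIS1 hairpins, 6785 with p53 knockdown and 4721.3 with BRD7 knockdown. The hairpin libraries overlapped the senescent ones. ACACA, which makes malonyl-CoA, ranged only from 2297.7 to 3611.7 over the 9 libraries. ELOVL6, which elongates palmitate, went the other way from its neighbours: it was lowest in the control at 684.9, had 1256.3 and 1196.3 in senescent replicates 1 and 2 and 950.8 to 1435.8 in the knockdowns. Its senescent mean was 0.84 higher than the control on the log2 scale (SE 0.22, limma adjusted p = 0.06), and the difference passed without lncRNA-OIS1 replicate 2 or 4.

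STARD4, which carries cholesterol between membranes, had 1159.3 in the control, 724.4 and 803.4 in senescent replicates 1 and 2, 1064.2, 1264.1, 1014.2 and 1547.6 with lncRNA-OIS1 hairpins, 1672.4 with p53 knockdown and 1293.7 with BRD7 knockdown. Both senescent values were the lowest of the 9. The log2 differences from the senescent libraries were 0.66 (SE 0.19, limma adjusted p = 0.128), 1.13 (SE 0.27, adjusted p = 0.0722) and 0.76 (SE 0.27, adjusted p = 0.303) for lncRNA-OIS1, p53 and BRD7 knockdown. Without lncRNA-OIS1 replicate 4 the p53 difference passed.

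TMEM97, a sterol-regulated membrane protein known as the sigma-2 receptor, had 504.4 in the control, 373.1 and 327 in senescent replicates 1 and 2, 324.3, 625.1, 557.3 and 549.8 with lncRNA-OIS1 hairpins, 879.8 with p53 knockdown and 587.9 with BRD7 knockdown. Replicate 1 of lncRNA-OIS1 was at the senescent level and the other 3 were above it. The p53 difference was 1.33 on the log2 scale (SE 0.40, limma adjusted p = 0.109). The BRD7 difference was 0.75 (SE 0.40, adjusted p = 0.478) and that with lncRNA-OIS1 hairpins 0.52 (SE 0.28, adjusted p = 0.343).

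The genes from squalene to cholesterol had no call in any comparison. HSD17B7, a 3-ketosteroid reductase, was at 83.1 in the control, 92 and 76.7 in senescent replicates 1 and 2, 139.4, 157.3, 111.7 and 111.1 with lncRNA-OIS1 hairpins, 234.8 with p53 knockdown and 151.7 with BRD7 knockdown. The control and senescent libraries overlapped and all 6 knockdown libraries were above them. Against the senescent libraries the p53 difference was 1.48 on the log2 scale (SE 0.29, limma adjusted p = 0.0544), just outside the threshold and inside it without lncRNA-OIS1 replicate 4. The lncRNA-OIS1 and BRD7 differences were 0.61 (SE 0.20, adjusted p = 0.162) and 0.85 (SE 0.29, adjusted p = 0.29). HSD17B7P2, its pseudogene by name, was at 20 in 8 libraries and 21.7 with BRD7 knockdown.

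EBP, a sterol isomerase, had 450 in the control, 325.1 and 292.1 in senescent replicates 1 and 2, 354.3, 497.6, 399.4 and 395 with lncRNA-OIS1 hairpins, 565.3 with p53 knockdown and 442.7 with BRD7 knockdown. Senescent replicates 1 and 2 were the lowest, and the p53 difference from them was 0.88 on the log2 scale (SE 0.22, limma adjusted p = 0.0815). SQLE, the epoxidase that oxidises squalene, likewise had its lowest values in the senescent libraries (1460.1 and 1533.2), with 1870.2 in the control and 1680.4 to 2529.7 in the knockdowns. The difference with lncRNA-OIS1 hairpins was 0.46 on the log2 scale (SE 0.17, adjusted p = 0.186). LSS, which closes the ring to lanosterol, had 2856.4 in the control, 2063.3 and 1969.2 in senescent replicates 1 and 2 and 2208.8 to 3125.7 in the knockdowns. DHCR7, the last reductase of the route, had 1971.7 in the control and 1047.2 and 1101.7 in senescent replicates 1 and 2 (log2 −0.88, SE 0.44, adjusted p = 0.223), and passed without lncRNA-OIS1 replicate 4, which itself had 1938.7 against 939.3, 1238.7 and 979.6 in the other hairpins.

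Other sterol genes were lower in the control than in the senescent libraries. NSDHL, a sterol dehydrogenase, had 394.9 in the control, 751 and 803 in senescent replicates 1 and 2, 582.1, 811.9, 673.9 and 849.7 with lncRNA-OIS1 hairpins, 926 with p53 knockdown and 742 with BRD7 knockdown. The control was below all 8 RASG12V libraries. The senescent mean was 0.98 higher on the log2 scale (SE 0.25, limma adjusted p = 0.0534), and passed without lncRNA-OIS1 replicate 1 or 4. FDFT1, the squalene synthase, had 3045.7 in the control, 5562.7 and 5405.2 in senescent replicates 1 and 2, 4475.3 to 6863 with lncRNA-OIS1 hairpins, 8330.2 with p53 knockdown and 5571 with BRD7 knockdown. Its senescent mean was 0.85 higher (SE 0.27, adjusted p = 0.0842), and passed without lncRNA-OIS1 replicate 2.

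MSMO1, a methyl sterol oxidase, was also lowest in the control, at 1534.1 against 2722.9 and 2446.1 in senescent replicates 1 and 2 and 2057 to 3309.4 in the knockdowns. SC5DL (SC5D), a sterol desaturase, had 826.2 in the control and 895.1 to 1367.1 elsewhere. CYP51A1, the lanosterol demethylase, had 45.2 in the control and 48.6 to 105.3 elsewhere. Its log2 difference between p53 knockdown and the senescent libraries was 0.80 (SE 0.42, limma adjusted p = 0.29). In the annotation other protein-coding genes overlap CYP51A1 on the same strand and it has pseudogenes by name, and whether this lowered its counts was not tested. TM7SF2, a sterol reductase, was likewise lower in the control than in both senescent libraries, but alone in its role it was below both with p53 knockdown. It had 77.6 in the control, 152.7 and 114 in senescent replicates 1 and 2, 92.9 to 161.4 with lncRNA-OIS1 hairpins, 53.1 with p53 knockdown and 58.7 with BRD7 knockdown. VPS51, which overlaps it on the same strand in the annotation, had 313.8 and 312.1 in senescent replicates 1 and 2, 338 with p53 knockdown and 232.3 with BRD7 knockdown. Whether VPS51 shared reads with TM7SF2 was not tested. The p53 and BRD7 libraries were the lowest of the 9 for TM7SF2, with log2 differences of −1.31 (SE 0.38, limma adjusted p = 0.0995) and −1.17 (SE 0.38, adjusted p = 0.273), and the first passed without lncRNA-OIS1 replicate 4.

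For the 6 mevalonate genes the highest value was 1.55 to 2.01 times the lowest. HMGCS1, the synthase that opens the route, had 1457.6 in the control, 1511.7 and 1633.9 in senescent replicates 1 and 2, 1617.6, 1953, 1966.3 and 1904.7 with lncRNA-OIS1 hairpins, 2374.7 with p53 knockdown and 2264 with BRD7 knockdown. The p53 and BRD7 values were the highest. Their log2 differences from the senescent libraries were 0.60 (SE 0.15, limma adjusted p = 0.0806) and 0.53 (SE 0.15, adjusted p = 0.241). MVK, mevalonate kinase, ranged from 297.4 in the control to 571 with p53 knockdown. MVD, the decarboxylase, ranged from 531.3 to 1068.8 and IDI1, the isomerase, from 1423.8 to 2729.4, with the same lowest and highest libraries. FDPS, farnesyl diphosphate synthase, was lowest in the control at 630.2 and highest in lncRNA-OIS1 replicate 4 at 1072.4. PMVK, phosphomevalonate kinase, ranged from 258.7 to 401.7, both in the lncRNA-OIS1 group. No mevalonate gene was called in any comparison.

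**Figure D4:**
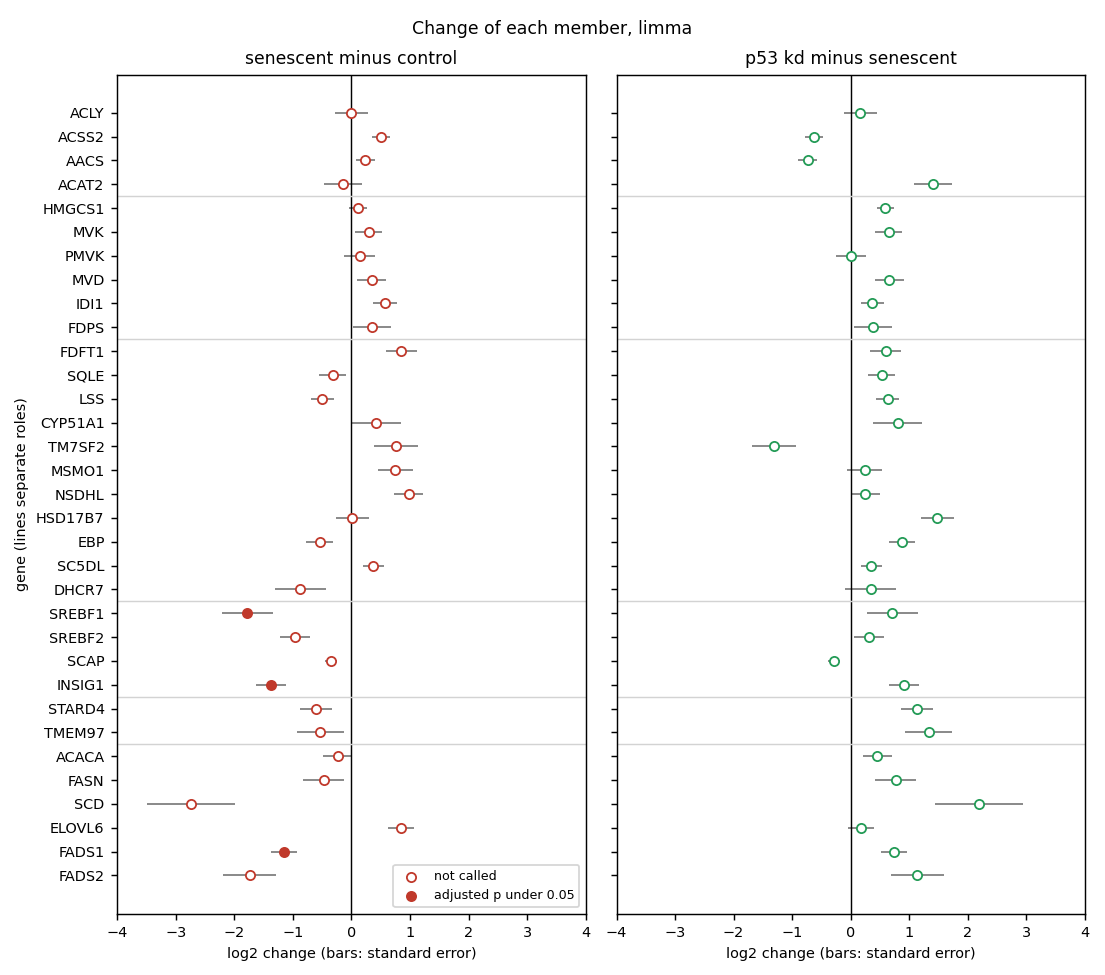
Points give the limma log2 change (x axis) of each member, with bars for the standard error, for senescent minus control (left) and p53 knockdown minus senescent (right), and filled points passed an adjusted p of 0.05. On the left SREBF1, INSIG1 and FADS1 passed and the roles split in sign, and on the right 29 of 33 points lie above 0 and none passed.

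None of the 4 acetyl-CoA genes was called in any comparison, and their values differed in direction. ACAT2, the cytosolic thiolase that makes acetoacetyl-CoA, had 791.2 in the control, 787 and 650.3 in senescent replicates 1 and 2, 919, 1480.9, 949 and 1256.3 with lncRNA-OIS1 hairpins, 1894.4 with p53 knockdown and 1476.1 with BRD7 knockdown. All 6 knockdown libraries were above the control and the senescent libraries. The log2 differences from the senescent libraries were 0.66 (SE 0.23, limma adjusted p = 0.175), 1.40 (SE 0.32, adjusted p = 0.0705) and 1.05 (SE 0.32, adjusted p = 0.264) for lncRNA-OIS1, p53 and BRD7 knockdown. In the annotation ACAT2 overlaps TCP1 and SOD2 on the opposite strand. TCP1, a chaperonin subunit, had 3635.7 and 3434.7 in senescent replicates 1 and 2 and 5765.2 with p53 knockdown, and SOD2, a mitochondrial dismutase, had 1879.4 and 2596.7 in senescent replicates 1 and 2 and 1329.4 with p53 knockdown. The sources used here do not say whether counting separated the strands.

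AACS, which activates acetoacetate for lipid synthesis, was lower in every knockdown than in the senescent libraries. It had 806.6 in the control, 947 and 954.8 in senescent replicates 1 and 2, 686.6, 671.9, 706.7 and 572.6 with lncRNA-OIS1 hairpins, 571.2 with p53 knockdown and 502.6 with BRD7 knockdown. The 6 knockdown values were also below the control. The log2 differences from the senescent libraries were −0.53 (SE 0.11, limma adjusted p = 0.0863), −0.74 (SE 0.16, adjusted p = 0.0616) and −0.92 (SE 0.16, adjusted p = 0.196). ACSS2, which makes acetyl-CoA from acetate, had 515.8 in the control, 720.9 and 744.1 in senescent replicates 1 and 2, 604.4 to 734.8 with lncRNA-OIS1 hairpins, 475 with p53 knockdown and 734 with BRD7 knockdown. ACLY, which makes it from citrate, ranged from 4888.2 in lncRNA-OIS1 replicate 3 to 7786.7 with p53 knockdown, and the control (6949.7) lay between senescent replicates 1 and 2 (7325.9 and 6574.4).

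Of 43 related lipid genes in the table, 42 were tested and none was called in any knockdown against the senescent libraries. At an unadjusted p under 0.05, 4 were higher and 5 lower with lncRNA-OIS1 hairpins, beside 10.5% and 12% of all genes. With p53 knockdown 5 were higher and 5 lower (13.3% and 13.1% of all genes), and with BRD7 knockdown 2 and 1 (6.81% and 7.09%). Against the control, 2 fell in the senescent libraries, beside the 7.1% of all genes given above. ELOVL5, an elongase of polyunsaturated fatty acids, went from 5364.7 to 2000.3 and 1727.7 (log2 −1.53, SE 0.20, limma adjusted p = 0.0112), and had 2381.7 to 3751.6 in the knockdowns. NR1H3, the sterol-sensing receptor LXR alpha, went from 164.1 to 40.7 and 36.3 (log2 −2.09, SE 0.41, adjusted p = 0.0301). These were also called lower with lncRNA-OIS1 hairpins than in the control, together with PCYT2, an enzyme of phosphatidylethanolamine synthesis. In that comparison 5.83% of all genes were called lower. The median log2 difference of the related genes with p53 knockdown was −0.13, against 0.60 for the 33 members. The 9 fatty acid oxidation genes had a median of −0.32 there and 7 of 9 were below both senescent libraries, as were 45% of all genes. ABCG1, a sterol exporter, was at the floor in 8 libraries and was not tested.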

How the data were processed

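The deposited table gives a signal per gene and library: per the table's name and values, read counts that the authors quantile-normalised and floored at 20. The submitters' processing notes list TopHat2, HTSeq and the build hg19, without roles or versions. Groups came from the labels. Genes whose highest value was at least 40 (12481) were fitted as log2 of the value, without a pseudocount, with limma 3.58.1 in R 4.3.3: 9 libraries, 5 groups, 4 residual degrees of freedom, variance trend, two-sided tests, and Benjamini-Hochberg adjustment over all genes with calls under 0.05. A lone library was taken to share the spread of the replicated groups. The fit was tested on simulated data. Alternatives were pseudocounts, filters, scaling, no variance trend, fewer libraries, a replicate block and each replicate left out. Members and lists were chosen with earlier results of these data known. Log2 changes are given for called members and, up to 10 per comparison, those with the largest changes. HMGCS1, AACS with p53 knockdown and the related genes named were chosen after their values were seen. In GENCODE release 29, 22 members overlap another gene and 7 have a pseudogene by name, so their counts are uncertain. Some genes in the table are not reported here, and the p53 knockdown was not checked here.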

Additional observations from a re-analysis of the deposited data

Results flagged for a closer look

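In the group of 4 lncRNA-OIS1 libraries, 2 of the 33 members had a library far from the other 3 relative to the group's range, where chance marks about 1 group in 20. INSIG1 stood at 1715.9 in replicate 2 against 2461.8 to 2531.7 in the other 3. SC5DL stood at 895.1 in replicate 1 against 1111.2 to 1148 in the other 3.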

How the results depend on the processing

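The median log2 change of the members stayed within the spread between libraries (SD 0.19) under every alternative run, in all 5 comparisons. No named member changed its direction. The number of members called did move. The share of all genes called under these settings is not given here, so the counts show only how the calls depend on the setting. For senescent against control (3 called) it was 6 when genes needed a mean of 80 or more, 5 with median-of-ratios scaling, 18 with only the libraries compared and 0 to 11 when a library was left out. For p53 knockdown (0 called) it was 1 with the stricter filter, 20 with only the libraries compared and 0 to 5 when a library was left out. For lncRNA-OIS1 hairpins it was 0 to 1 against the senescent libraries when a library was left out. Against the control (1 called) it was 0 with the stricter filter, without a variance trend and with only the libraries compared, and 0 to 5 when a library was left out. For BRD7 knockdown it was 0 throughout. The cause of these changes was not tested. With the label number as a replicate block, the senescent libraries against the control had 0 calls and the lncRNA-OIS1 hairpins against the control had 0. Same-numbered libraries of the senescent and lncRNA-OIS1 groups carried different hairpins and deviated with correlations of −0.07 and −0.10. The deviations of the 2 senescent libraries mirror each other, so these values cannot show whether same-numbered libraries shared a culture or batch. Depth is unknown, and 3 groups of 1 library limit every comparison.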
